A study of Mus musculus with 9 samples.

Results

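Hox genes encode homeodomain transcription factors that give cells along the body axis their position. In the mouse they lie in 4 clusters, Hoxa on chromosome 6, Hoxb on chromosome 11, Hoxc on chromosome 15 and Hoxd on chromosome 2, and the paralog number of a gene, from 1 to 13, follows its place in the cluster and, in the embryo, the anterior to posterior order in which it is used. Connective tissue and smooth muscle of adult organs keep a Hox pattern of the level at which they formed, and posterior genes such as Hoxa13 and Hoxd13 pattern the cloaca and urogenital sinus, from which the bladder derives.

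Of the 39 mouse Hox genes in RefSeq, 34 had at least 1 probe set that the array annotation assigned to a single gene, out of 17097 genes so measured; the other 5 were not analysed here. The 34 genes had 42 probe sets, and for the 6 genes with several the probe set with the highest mean over all arrays was used. The clusters were covered by 9 of 11 Hoxa, 10 of 10 Hoxb, 6 of 9 Hoxc and 9 of 9 Hoxd genes.

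The 9 arrays, 1 bladder sample each, came from female C57BL/6J mice in 2 numbered experiments, and the values are log2 intensities. In the tumour groups MB49 mouse bladder carcinoma cells had been instilled into the bladder after poly-L-lysine on day 0, and the bladders were taken on day 12. Experiment 1 held a healthy bladder (PBS), a tumour bladder sham-treated with PBS, and tumour bladders given 1.7, 8.5 or 17 mM alpha1-oleate, a complex of a human alpha-lactalbumin peptide with oleate that was put into the bladder 5 times from day 3 to day 11. Experiment 2 held a healthy PBS bladder, a sham-treated tumour bladder, and tumour-free bladders taken 24 h or 7 d after 17 mM alpha1-oleate. Healthy PBS and sham tumour were therefore the groups with 2 arrays, 1 in each experiment, and the other 5 groups had 1. No sample time was given for the healthy PBS mice. The labels do not say whether an array holds 1 animal or a pool, so p-values measure the spread between these arrays alone, which are few.

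The array labelled healthy, 17 mM, 24 h went against its label. Its 6 proliferation markers had a median of 6.86 log2, with Mki67 at 6.83, between the healthy PBS bladder of its experiment (median 3.50) and the sham tumour (8.96), and its leukocyte markers lay at a median of 7.07 against 4.25 and 8.18. Its values are given under that name and enter no other comparison except through the mean over all arrays, used to pick probe sets and to filter low genes. Liver markers, with a median of 4.20 in the healthy PBS bladder of experiment 2, were at 7.54 there and at 8.0 in the 17 mM tumour of experiment 1.

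A floor was set on each array as the 95th percentile of 81 olfactory, vomeronasal and taste receptor genes, and lay between 4.55 and 4.79. On that scale 8 of the 34 Hox genes were above the floor on all 9 arrays, 13 on some and 13 on none. The 13 that never reached it, Hoxa2, Hoxa4, Hoxb1, Hoxb5, Hoxb7, Hoxc4, Hoxc5, Hoxc8, Hoxc10, Hoxc13, Hoxd1, Hoxd11 and Hoxd12, ranged from 2.64 to 4.5 log2. Genes above the floor on at least 1 array numbered 7 of 9 in Hoxa, 7 of 10 in Hoxb, 6 of 9 in Hoxd and 1 of 6 in Hoxc, where Hoxc9 alone was measurable. The same 21 genes passed the filter on mean level that the tests used. At or above the floor were 20 Hox genes in the healthy PBS bladder and 13 in the sham tumour of experiment 1, and 15 and 11 in experiment 2. Values near the floor are compressed, so a difference that ends there understates the change. The log2 of the summed linear signal of 8 kidney markers was 10.1 and 9.81 in the healthy PBS bladders, where 5 of the 8 were under the floor, 7.11 and 7.23 in the sham tumours and 7.21 in the bladder taken at 7 d. The urothelial gene Upk2 was at 11.22 and 10.86 and the smooth muscle gene Myh11 at 11.82 and 11.54 in the healthy PBS bladders.

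**Figure D1:**
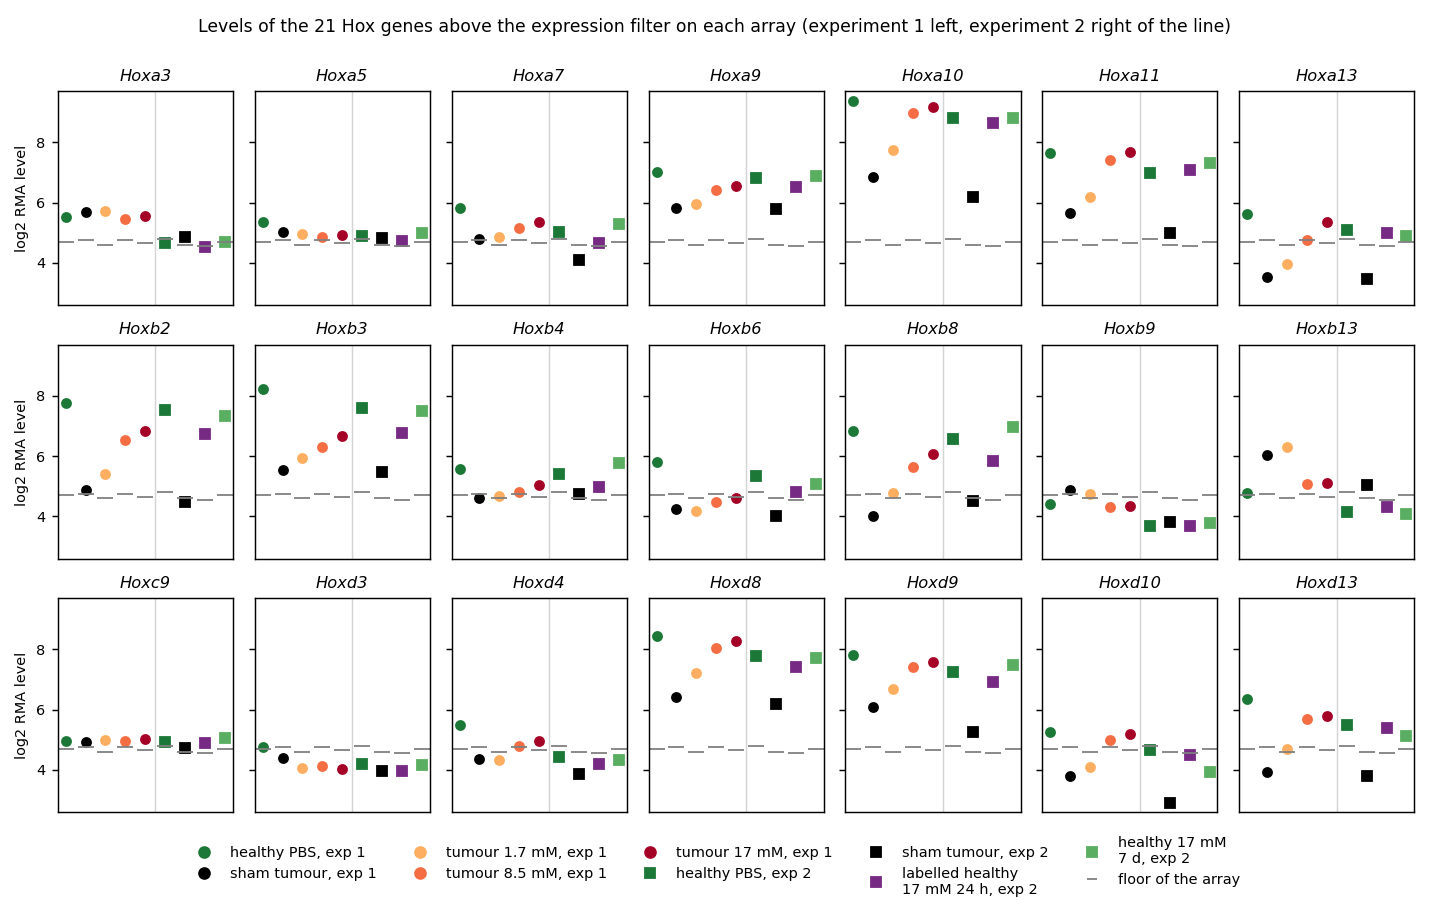
Log2 RMA level of the 21 Hox genes above the expression filter (y axis) on each of the 9 arrays, circles for experiment 1 and squares for experiment 2, 1 array per point; grey dashes are the floor of each array. Hoxa10, Hoxa11, Hoxd8 and Hoxd9 stood above the floor on every array and were lowest in the sham tumours (black), whereas Hoxb13 within each experiment was highest in tumours given PBS or 1.7 mM.

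The promoters of members that moved together in the comparisons below are shown here, as the 250 bases before the RefSeq start site on assembly GRCm38.p6, 5′ to 3′ on the strand of the gene. Capitals mark CCAAT, the core of the NF-Y motif, and GGGCGG, the core that Sp-family factors read, as well as TTTAT, found in posterior Hox binding motifs, each on either strand. Hoxa10 is shown for both of its starts in the table, on the minus strand of chr6:52240855-52241104 (start 1) and chr6:52234940-52235189 (start 2), and Hoxa11 on the minus strand of chr6:52245811-52246060. Hoxd9 lies on the plus strand at chr2:74697513-74697762, Hoxd10 at chr2:74691641-74691890, and Hoxb8 at chr11:96281655-96281904.
Hoxa10 start 1: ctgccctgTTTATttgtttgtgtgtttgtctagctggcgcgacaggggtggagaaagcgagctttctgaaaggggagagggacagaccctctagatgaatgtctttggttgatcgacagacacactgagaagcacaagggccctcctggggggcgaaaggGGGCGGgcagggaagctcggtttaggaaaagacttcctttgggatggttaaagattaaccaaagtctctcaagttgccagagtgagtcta
Hoxa10 start 2: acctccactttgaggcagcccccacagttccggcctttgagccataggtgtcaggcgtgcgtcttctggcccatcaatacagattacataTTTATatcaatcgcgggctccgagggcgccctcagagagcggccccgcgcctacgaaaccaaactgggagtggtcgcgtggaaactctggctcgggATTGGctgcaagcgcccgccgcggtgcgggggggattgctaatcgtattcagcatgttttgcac
Hoxa11: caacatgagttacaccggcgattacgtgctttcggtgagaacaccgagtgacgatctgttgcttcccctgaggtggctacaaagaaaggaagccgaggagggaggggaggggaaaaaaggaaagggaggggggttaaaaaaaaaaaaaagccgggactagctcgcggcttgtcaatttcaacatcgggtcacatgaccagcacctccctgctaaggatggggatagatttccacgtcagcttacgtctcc
Hoxd9: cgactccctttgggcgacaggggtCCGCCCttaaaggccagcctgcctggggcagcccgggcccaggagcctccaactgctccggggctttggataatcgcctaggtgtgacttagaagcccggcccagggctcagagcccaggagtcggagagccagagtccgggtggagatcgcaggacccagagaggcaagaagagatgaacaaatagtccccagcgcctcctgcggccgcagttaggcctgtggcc
Hoxd10: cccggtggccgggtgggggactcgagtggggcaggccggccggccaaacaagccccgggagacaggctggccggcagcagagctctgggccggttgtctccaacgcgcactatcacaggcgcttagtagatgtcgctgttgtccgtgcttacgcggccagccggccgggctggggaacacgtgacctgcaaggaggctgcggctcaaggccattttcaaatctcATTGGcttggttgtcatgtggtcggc
Hoxb8: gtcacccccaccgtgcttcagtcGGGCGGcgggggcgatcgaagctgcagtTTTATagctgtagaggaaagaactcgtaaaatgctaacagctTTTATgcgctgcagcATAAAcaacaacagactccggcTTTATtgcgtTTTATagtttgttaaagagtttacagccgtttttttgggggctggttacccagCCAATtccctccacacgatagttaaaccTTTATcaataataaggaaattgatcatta

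The upstream windows differed in these letters. The Hoxb8 window held 6 TTTAT, 1 CCAAT and 1 GGGCGG, the Hoxa11 window held none of the 3, the Hoxd10 window held 1 CCAAT and the Hoxd9 window 1 GGGCGG. Both Hoxa10 windows held 1 TTTAT, with 1 GGGCGG at start 1 and 1 CCAAT at start 2. Of the 34 members, 21 had a window in the RefSeq table, with 23 windows in all. CCAAT occurred in 13 of these 23 windows and in 33.8% of 32851 windows of all genes. GGGCGG occurred in 9 of 23 against 32.7%, and TTTAT in 9 of 23 against 37.3%. Median GC content was 58.0% for the members and 52.4% for all windows, and the observed over expected CpG ratio was 0.687 against 0.374. A match describes the letters of the window and not a bound site, and factor binding and methylation were not measured.

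In sham-treated tumour bladders most measurable Hox genes were lower than in healthy PBS bladders. By limma, fitted to all genes with the experiment as a block and Benjamini-Hochberg adjustment over 11969 genes, 15 of the 21 Hox genes above the filter fell, 1 rose (Hoxb13) and 5 did not pass adjusted p under 0.05. Of all genes tested 57.2% were called, 28.6% lower and 28.6% higher. The 16 called Hox genes had the same sign in both experiments. Without the experiment block 12 were called, and Hoxa7, Hoxb4, Hoxb13 and Hoxd4 were not (adjusted p = 0.0927, 0.181, 0.0553 and 0.157). Over all 34 Hox genes the median difference was -0.42 log2, against -0.02 over all genes. Falls were called in 5 of 7 tested Hoxa, 5 of 7 Hoxb and 5 of 6 Hoxd genes, and in 4 of 6 genes of paralog groups 1 to 4, 4 of 5 of groups 5 to 8 and 7 of 10 of groups 9 to 13. In a whole bladder, fewer cells of a type and less RNA per cell cannot be told apart.

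Among the posterior Hoxa genes, Hoxa10, which patterns the uterus and other parts of the urogenital tract, was at 9.37 and 8.82 log2 in the healthy PBS bladders of experiments 1 and 2 and at 6.85 and 6.17 in the sham tumours. The sham tumours lay below the healthy bladders in both experiments, and the fitted difference was -2.59 (SE 0.094, limma adjusted p = 0.0024), or 6.0-fold. Hoxa11, needed in kidney, limb and uterus development, went from 7.63 and 6.97 to 5.65 and 5.00 (-1.98, SE 0.087, adjusted p = 0.00247). Hoxa9, known as a partner of Meis1 in leukaemia, went from 7.01 and 6.82 to 5.82 and 5.79 (-1.11, SE 0.098, adjusted p = 0.00517). These 3 genes stayed above the floor on every array, so their falls were measured at both ends. Hoxa13, which patterns the cloaca and digits, was at 5.61 and 5.08 in the healthy bladders and at 3.52 and 3.46, under the floor, in the sham tumours (-1.86, SE 0.157, adjusted p = 0.00484). With the sham tumours set at the floor, Hoxa13 was at least 1.60-fold lower there. Hoxa7, a gene of thoracic vertebrae, went from 5.81 and 5.03 to 4.80 and 4.10, the second under the floor (-0.97, SE 0.090, adjusted p = 0.00563).

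Hoxa3 and Hoxa5, the anterior Hoxa genes above the filter, did not pass. Hoxa3, needed for thymus and parathyroid formation, was at 5.52 and 4.65 in the healthy bladders and at 5.69 and 4.86 in the sham tumours (0.19, adjusted p = 0.156). The healthy value of experiment 2 was under the floor, and the other probe sets of Hoxa3 were under it on every array. Hoxa5, needed in lung development, was at 5.35 and 4.90 against 5.03 and 4.81 (-0.20, adjusted p = 0.196). Hoxa5 was above the floor on all 9 arrays and lower in the sham tumour of each experiment, and whether the 2 genes differ from the other Hoxa genes was not tested.

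In the Hoxb cluster the falls included anterior genes. Hoxb2, known for hindbrain segment identity, was at 7.77 and 7.54 log2 in the healthy PBS bladders and at 4.87 and 4.47 in the sham tumours, the second of them under the floor. The fitted difference was -2.99 (SE 0.099, limma adjusted p = 0.0024), with 1 of the 2 sham tumours above background. Hoxb3, also a hindbrain gene, went from 8.23 and 7.60 to 5.54 and 5.47 (-2.41, SE 0.179, adjusted p = 0.00402). Its other probe set, dimmer but above the floor on every array, differed by -0.33 and -0.20 in the 2 experiments. By the probe sets used, both genes were higher in each healthy bladder than in either sham tumour. Hoxb8, active in blood progenitors and microglia, went from 6.82 and 6.57 to 4.0 and 4.5, under the floor in both sham tumours (-2.45, SE 0.226, adjusted p = 0.0056), and was at least 4.08-fold lower. Hoxb6, a gene of posterior lateral mesoderm, was at 5.80 and 5.34 against 4.25 and 4.02, again under the floor (-1.44, SE 0.108, adjusted p = 0.00409), and was at least 1.87-fold lower. Hoxb4, known for expanding blood stem cells, went from 5.57 and 5.40 to 4.61, under the floor, and 4.73 (-0.82, SE 0.119, adjusted p = 0.0134), with its second probe set at -0.31 and -0.22. Averaging the probe sets of each gene gave -1.34 for Hoxb3 and -0.54 for Hoxb4, and both remained called. Each of these 5 genes was lower in the sham tumour than in the healthy bladder of the same experiment.

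Hoxb13, the most posterior gene of the cluster and an androgen receptor partner in prostate, went the other way. It was at 4.78 and 4.15 log2 in the healthy PBS bladders, close to or under the floor, and at 6.05 and 5.03 in the sham tumours (1.08, SE 0.139, limma adjusted p = 0.0105, with 1 of the 2 healthy bladders above background). In both experiments the sham tumour was the higher array. Hoxb9, next to it among measured genes of the cluster, was at 4.41 and 3.68 against 4.87 and 3.82 (0.30, adjusted p = 0.128) and did not pass. Of these Hoxb9 values only that of the sham tumour of experiment 1 was above the floor.

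In the Hoxd cluster, Hoxd8 and Hoxd9 were above the floor on all arrays. Hoxd8, a gene of trunk mesoderm, was at 8.43 and 7.77 log2 in the healthy PBS bladders and at 6.41 and 6.20 in the sham tumours (-1.80, SE 0.153, limma adjusted p = 0.00486). Its second probe set differed by -1.90 and -1.93 in the 2 experiments, in the same direction and of like size. Hoxd9, which takes part in limb and spinal cord patterning, went from 7.82 and 7.24 to 6.07 and 5.24 (-1.88, SE 0.112, adjusted p = 0.00314). Hoxd10, a gene of hindlimb motor neurons, went from 5.25 and 4.67 to 3.78 and 2.90 (-1.62, SE 0.121, adjusted p = 0.00405), and Hoxd13, which patterns digits and the urogenital sinus, from 6.34 and 5.50 to 3.91 and 3.79 (-2.07, SE 0.219, adjusted p = 0.00709). Both were under the floor in the sham tumours, and Hoxd13 was at least 2.39-fold lower. Hoxd10 was above the floor in only 1 of the 2 healthy bladders, so no at-least fold is given for it. The second Hoxd13 probe set, under the floor throughout, differed by -0.84 and -0.58. Hoxd4 was at 5.47 and 4.41 against 4.34 and 3.84 (-0.85, SE 0.179, adjusted p = 0.0299). Of these 4 arrays only the healthy bladder of experiment 1 was above the floor, so no at-least fold is given. Hoxd3 was near the floor almost throughout and did not pass (-0.30, adjusted p = 0.0671). In the Hoxc cluster Hoxc9, a gene of thoracic spinal cord patterning, was at 4.97 and 4.92 against 4.93 and 4.71 (-0.12, adjusted p = 0.35).

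**Figure D2:**
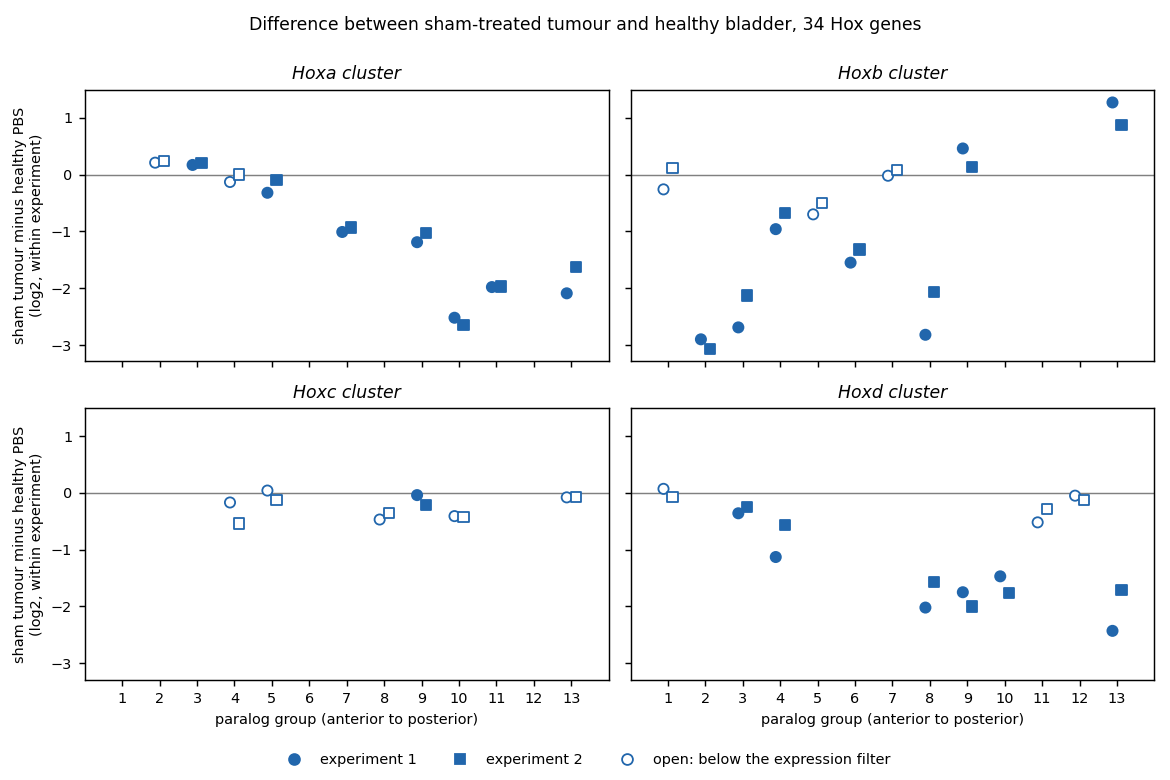
Sham tumour minus healthy PBS bladder within each experiment (log2, y axis) for the 34 Hox genes by paralog group (x axis) and cluster, circles for experiment 1 and squares for experiment 2, open where the gene was below the expression filter. In Hoxa the differences were 0.17 and 0.21 at Hoxa3 and -2.52 and -2.65 at Hoxa10, in Hoxb they were -2.90 and -3.07 at Hoxb2 and above 0 at Hoxb13, and in Hoxc they lay between -0.54 and 0.04.

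The plot of differences by paralog group shows a different order in each cluster. In Hoxa, groups 3 and 5 were not called and groups 7 to 13 were called lower. In Hoxb, groups 2, 3, 4, 6 and 8 were called lower and group 13 higher. This is a description of probe sets, which differ in how they respond, and the order was not tested.

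Smooth muscle and urothelial markers and some fibroblast markers moved with these falls, where 28.6% of all genes were called lower and 28.6% higher. All 8 measured smooth muscle markers fell in the sham tumours, and the log2 of their summed linear signal was 14.3 and 14.2 in the healthy PBS bladders and 13.3 and 12.7 in the sham tumours. Of the 13 urothelial markers 12 fell, with summed levels of 15.1 and 14.6 against 13.1 and 12.5. Of the 7 fibroblast markers above the filter 4 fell, with 13.38 and 12.98 against 12.8 and 12.2. The other 3, Col1a1, Col3a1 and Pdgfra, were higher in the sham tumour of each experiment and were not called. Of 6 endothelial markers 1 was called higher and 1 lower. All 6 proliferation markers rose, with 6.87 and 6.29 against 12.3 and 11.6, and 8 of 9 leukocyte markers rose, with 8.52 and 7.95 against 12.2 and 11.4. Xist, transcribed in the cells of the female host, went from 10.32 and 10.22 to 9.15 and 8.97 (-1.21, SE 0.090, limma adjusted p = 0.00404). None of the smooth muscle markers was under the floor on any array. The part of these shifts in the Hox values was not tested.

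In the tumour given 17 mM alpha1-oleate, 10 of the 21 tested Hox genes were higher than in the sham tumours and none was called lower by limma, where 26.3% of all genes tested were called, 15.7% higher and 10.6% lower. These 10 were Hoxa9, Hoxa10, Hoxa11, Hoxa13, Hoxb2, Hoxb8, Hoxd8, Hoxd9, Hoxd10 and Hoxd13. Of them 7 belong to paralog groups 9 to 13, which hold 10 of the 21 tested genes. The median over all 34 was 0.14 log2, against -0.04 over all genes. The comparison shares its sham tumours with the one above. Each dose is 1 array of experiment 1, assumed to vary like the PBS groups.

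Hoxa10 was at 6.85 log2 in the sham tumour of experiment 1, at 7.76, 8.98 and 9.18 in the tumours given 1.7, 8.5 and 17 mM, and at 9.37 in the healthy PBS bladder. It stepped up with each dose, and at 17 mM was higher by 2.36 (SE 0.125, limma adjusted p = 0.0159, 5.14-fold). Hoxa11 was at 5.65, then 6.18, 7.41 and 7.69, and at 7.63 in the healthy bladder, so the 17 mM array reached the healthy level (2.04, SE 0.115, adjusted p = 0.0159). Hoxa13 was at 3.52, 3.97, 4.75 and 5.34, and reached the floor at 8.5 mM (at 17 mM 1.70, SE 0.208, adjusted p = 0.0243, at least 1.52-fold). Hoxa9 was at 5.82, 5.95, 6.40 and 6.55 (0.69, SE 0.130, adjusted p = 0.0449). The Hoxa9 call was lost without the experiment block (adjusted p = 0.606) and with no filter on low genes (0.0544).

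The Hoxd genes took a like course. Hoxd8 was at 6.41 log2 in the sham tumour, at 7.22, 8.05 and 8.29 with rising dose, and at 8.43 in the healthy PBS bladder (17 mM 1.77, SE 0.202, limma adjusted p = 0.0221). Hoxd9 was at 6.07, 6.68, 7.43 and 7.59 and at 7.82 in the healthy bladder (1.58, SE 0.148, adjusted p = 0.0188). Hoxd10 was at 3.78, 4.10, 4.99 and 5.18 and at 5.25 in the healthy bladder (1.48, SE 0.160, adjusted p = 0.0214, a bound of 0.44 log2 from the floor). Each of the 3 was nearer to the healthy array at each higher dose. Hoxd13 was at 3.91, 4.70, 5.68 and 5.79 (1.70, SE 0.289, adjusted p = 0.0384, at least 2.07-fold), and missed the threshold with no filter (adjusted p = 0.0502); the mean of its probe sets gave 1.02. Hoxd4 was at 4.34, 4.33, 4.79 and 4.97 (0.49, adjusted p = 0.216) and Hoxd3 stayed near the floor.

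In the Hoxb cluster 2 of 7 tested genes rose at 17 mM. Hoxb2 was at 4.87 log2 in the sham tumour, at 5.40, 6.53 and 6.82 with rising dose, and at 7.77 in the healthy PBS bladder (17 mM 1.99, SE 0.131, limma adjusted p = 0.0159). Hoxb8 was at 4.0, 4.78, 5.63 and 6.08, and at 6.82 in the healthy bladder (1.89, SE 0.299, adjusted p = 0.0343, at least 2.53-fold). Both treated values lay between sham tumour and healthy. Hoxb3 was at 5.54, 5.92, 6.31 and 6.68, below the 8.23 of the healthy bladder, and missed the threshold (1.0, SE 0.236, adjusted p = 0.0656), but passed when all arrays were quantile-normalized together (0.87, adjusted p = 0.027). Hoxb6 was at 4.25, 4.17, 4.47 and 4.60, under the floor at each dose, against 5.80 in the healthy bladder (0.29, adjusted p = 0.22). Hoxb4 was at 4.61, 4.68, 4.82 and 5.03 (0.35, adjusted p = 0.196).

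Hoxb13 was at 6.05 log2 in the sham tumour and at 6.29, 5.07 and 5.10 with rising dose, so that the tumours given 8.5 and 17 mM lay nearer to the healthy 4.78. The difference at 17 mM was -0.85 (SE 0.184, limma adjusted p = 0.0561) and did not pass. It passed with joint quantile normalization (-0.95, adjusted p = 0.0087) and with the mean of probe sets per gene (adjusted p = 0.0477). Hoxa7 was at 4.80, 4.87, 5.16 and 5.34 (0.52, adjusted p = 0.0619), Hoxa3, Hoxa5 and Hoxc9 differed by -0.14, -0.17 and 0.14, and Hoxb9 by -0.46 (adjusted p = 0.134). Hoxb9 was under the floor at 17 mM.

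**Figure D3:**
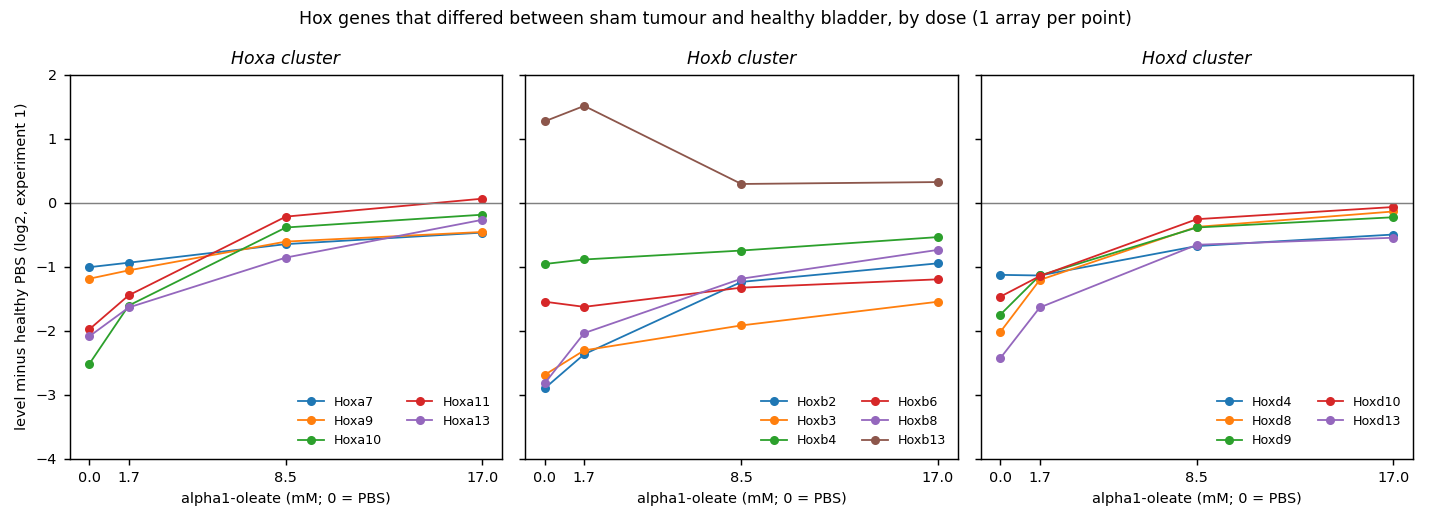
Level minus the healthy PBS bladder in experiment 1 (log2, y axis) against the alpha1-oleate concentration in mM (x axis, 0 is the PBS sham tumour), 1 array per point, for the 16 Hox genes called between sham tumour and healthy bladder, in 3 clusters. At 17 mM Hoxa10 was at -0.19, Hoxa11 at 0.06, Hoxd9 at -0.23 and Hoxd10 at -0.07. Hoxb3, by the probe set used, was at -1.55 and Hoxb6 at -1.20.

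At 8.5 mM, 6 Hox genes were called higher than in the sham tumours and none lower, where 15.6% of all genes were called, 11.0% higher and 4.65% lower. They were Hoxa10 (2.16, limma adjusted p = 0.0253), Hoxa11 (1.76, adjusted p = 0.0253), Hoxb2 (1.70, adjusted p = 0.0253), Hoxd8 (1.53, adjusted p = 0.0364), Hoxd9 (1.42, adjusted p = 0.0293) and Hoxd10 (1.28, adjusted p = 0.0339, at least 1.19-fold). All 6 are among the 10 called at 17 mM. With all arrays quantile-normalized together, 10 were called, 9 higher and 1, Hoxb13, lower.

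At 1.7 mM no Hox gene passed by limma, as was so for all genes (0% called). At unadjusted p under 0.05 there were 5 Hox genes of 21 and 1595 of all genes, or 13.3%. Hoxa10 differed by 0.94 (SE 0.125, adjusted p = 0.251), Hoxd8 by 0.70 (adjusted p = 0.345), and Hoxd9 by 0.67 (adjusted p = 0.294). Values rose at each step from sham tumour through 1.7 and 8.5 to 17 mM in 13 of the 21 tested Hox genes and fell at each step in none. Of all genes above the filter 20.0% rose at each step and 21.2% fell at each step. The steps rest on 1 array per dose and were not tested.

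The smooth muscle, fibroblast and urothelial markers also moved with dose in experiment 1. At 17 mM all 8 smooth muscle markers and 6 of 7 tested fibroblast markers were called higher than in the sham tumours, and 11 of 13 urothelial markers. The share over all genes was 15.7% higher. The log2 of the summed smooth muscle signal was 13.3 in the sham tumour, 13.7, 14.7 and 14.97 with rising dose, and 14.3 in the healthy PBS bladder. That of fibroblast markers was 12.8, then 13.6, 14.4 and 14.4, against 13.4 in the healthy bladder. Both lists ended above the healthy bladder, whereas that of urothelial markers went from 13.1 to 13.5, 14.3 and 14.5, below the healthy 15.1. Proliferation markers went from 12.3 to 12.1, 11.1 and 10.6, and Xist from 9.15 to 9.26, 9.95 and 10.21. Liver markers went from 6.80 to 6.92, 9.84 and 11.0. The part of these shifts in the Hox values was not tested.

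Against the healthy PBS bladders, no Hox gene of 21 was called in the 17 mM tumour by limma, where 2.97% of all genes were called, 2.61% higher and 0.368% lower. At unadjusted p under 0.05 there were 6 Hox genes and 3749 of all genes, or 31.3%. The 4 lowest adjusted p-values were those of Hoxb6 (-1.14, SE 0.143, adjusted p = 0.0599), Hoxb2 (-0.99, SE 0.131, adjusted p = 0.0632), Hoxb3 (-1.41, SE 0.236, adjusted p = 0.0762) and Hoxd3 (-0.69, SE 0.122, adjusted p = 0.0796), all lower in the tumour. These 4 were called lower when all arrays were quantile-normalized together (adjusted p = 0.0103, 0.0227, 0.014 and 0.0393). Hoxa10 differed by -0.22 (adjusted p = 0.319), Hoxa11 by 0.06 (adjusted p = 0.745), Hoxa13 by -0.15 (adjusted p = 0.657) and Hoxd8 by -0.03 (adjusted p = 0.94). Hoxb8 was -0.55 (adjusted p = 0.305) and Hoxd13 -0.37 (adjusted p = 0.447). The Hoxb3 value is that of the brighter probe set. The other Hoxb3 probe set was at 5.15 log2 in the 17 mM tumour and at 5.08 in the healthy bladder of experiment 1. The median was -0.51 over the Hoxb genes, -0.15 over the Hoxa genes and -0.23 over the Hoxd genes, and the difference between clusters was not tested. A p that missed the threshold does not show that these levels were equal.

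On the 1 array of tumour-free bladder 7 d after 17 mM, no Hox gene was called against healthy PBS by limma (0% of all genes called). At unadjusted p under 0.05 there were 1 Hox gene and 1096 of all genes, or 9.16%. Hoxa10 was at 8.81 log2 at 7 d and at 8.82 in the healthy PBS bladder of the same experiment, Hoxa11 at 7.31 and 6.97, and Hoxb2 at 7.32 and 7.54. Hoxb3 was at 7.49 and 7.60, Hoxb8 at 6.95 and 6.57, and Hoxd9 at 7.48 and 7.24. These 6 genes differed by at most 0.38 log2. The kidney gene Kap was at 5.72 at 7 d, against 9.32 in the healthy bladder, and was not called either. A gene that was not called may therefore still differ. The bearing of Kap on the Hox values was not tested. Hoxd10 was at 3.91 against 4.67, both under the floor (-0.69, SE 0.160, adjusted p = 0.52), and Hoxd13 at 5.11 against 5.50 (-0.57, adjusted p = 0.594).

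On the array labelled healthy, 17 mM, 24 h, no Hox gene was called against healthy PBS by limma (0% of all genes called), and 6 Hox genes and 2503 of all genes, or 20.9%, had unadjusted p under 0.05. Hoxb2 was at 6.73 log2, between the healthy 7.54 and the sham tumour 4.47 of the experiment (-0.77, SE 0.131, adjusted p = 0.142). Hoxb3 was at 6.77, between 7.60 and 5.47 (-0.97, SE 0.236, adjusted p = 0.186), and Hoxb8 at 5.84, between 6.57 and 4.5 (-0.92, SE 0.299, adjusted p = 0.239). The other Hoxb3 probe set was at 4.93, below both the healthy bladder (5.29) and the sham tumour (5.09) of the experiment. Hoxa10, at 8.63, and Hoxa11, at 7.08, lay beside the healthy 8.82 and 6.97. This is the array whose proliferation and leukocyte markers were above those of healthy bladder, and the part of that in these values was not tested. Between this array and the one at 7 d no Hox gene was called (0% of all genes; at unadjusted p under 0.05, 6 Hox genes and 22.2% of all genes), with Hoxb8 at a difference of -1.11 (24 h minus 7 d, SE 0.320, adjusted p = 0.201).

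**Figure D4:**
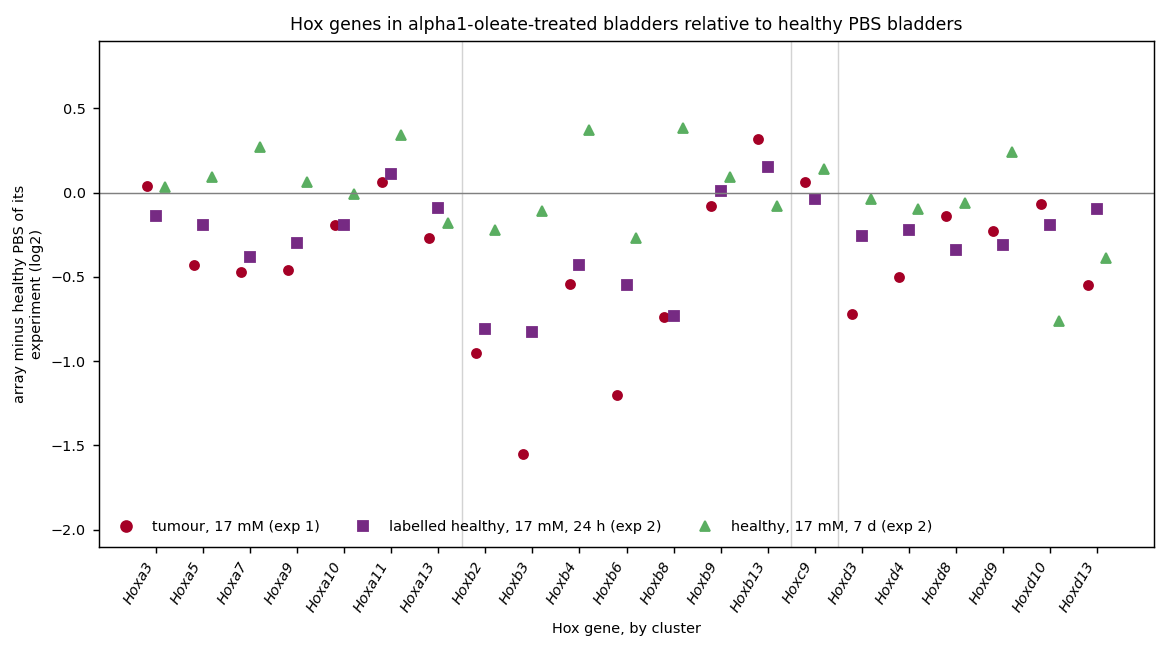
Difference from the healthy PBS bladder of the same experiment (log2, y axis) for the 21 Hox genes above the filter (x axis), 1 array per point: circles the 17 mM tumour, squares the array labelled healthy, 17 mM, 24 h, triangles the healthy bladder at 7 d after 17 mM. Hoxb3, by the probe set used, was at -1.55 in the 17 mM tumour, Hoxb6 at -1.20 and Hoxb2 at -0.95. Below 0 on all 3 arrays were 10 of the 21 genes.

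Hox proteins bind DNA with cofactors of the TALE homeodomain class, the Pbx, Meis and Pknox proteins. The TALE list used here also holds Tgif1 and Tgif2, which are outside these families and were not called in either comparison below. In the sham tumours 3 of 9 tested TALE genes fell and 1 rose, and at 17 mM 3 rose and none fell against the sham tumours. Of all genes tested 28.6% fell and 28.6% rose in the sham tumours, and 15.7% rose and 10.6% fell at 17 mM, so the TALE counts in the sham tumours are near or below the background. Meis1 was at 8.42 and 7.58 log2 in the healthy PBS bladders, at 5.83 and 4.60 in the sham tumours, and at 6.84, 8.12 and 8.41 at 1.7, 8.5 and 17 mM. It was low in both sham tumours (-2.79, SE 0.139, limma adjusted p = 0.00264) and at the healthy level at 17 mM (2.68 above sham, SE 0.184, adjusted p = 0.0159). Meis2 differed by -1.42 (adjusted p = 0.00349) and rose by 2.26 at 17 mM (adjusted p = 0.0159). Meis2 was above the floor in both sham tumours. Meis1 was at the floor in the sham tumour of experiment 2 (4.60 against 4.59), so its fall may be understated. Pknox2, under the floor in both sham tumours and in the healthy bladder of experiment 2, was called lower in the sham tumours (fitted -0.82, adjusted p = 0.00718). No at-least fold is given for that fall. At 17 mM Pknox2 was at least 2.08-fold higher (fitted 1.47, adjusted p = 0.0168). Meis3, under the floor in the healthy bladder of experiment 2, rose by 0.42 in the sham tumours (adjusted p = 0.0291). Median differences of the list were -0.01 and 0.17.

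Other regional transcription factors of the lower urinary tract mesenchyme were also lower in the sham tumours and higher at 17 mM. Of 14 tested, 10 fell and none rose in the sham tumours, and 11 rose and none fell at 17 mM, with medians of -1.53 and 1.46 over the 18 measured. The shares over all genes were 28.6% lower in the sham tumours and 15.7% higher at 17 mM. This list was chosen with earlier results of these data known, so its counts are no independent test against those shares. Msx2, a homeobox gene of bone and limb signalling, and Tbx2, a T-box repressor, were under the floor in both sham tumours, where they were at least 10.6-fold and 8.82-fold lower (fitted -3.64, SE 0.155, and -3.29, SE 0.087, limma adjusted p = 0.0024 for each). Gata6, a zinc finger factor of visceral tissue, was above the floor throughout and differed by -2.52 (SE 0.088, adjusted p = 0.0024). At 17 mM Osr1, a zinc finger factor of urogenital mesoderm, was higher by 3.15 (SE 0.233, adjusted p = 0.0161), with 1 of the 2 sham tumours under the floor, and Gata6 by 3.08 (SE 0.117, adjusted p = 0.0159). Tbx2 was at least 7.57-fold higher (fitted 3.12, SE 0.116, adjusted p = 0.0159). Osr1 reached 8.33 log2 at 17 mM, above the 6.60 of the healthy bladder, while Msx2 reached 7.11, below 8.59.

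**Figure D5:**
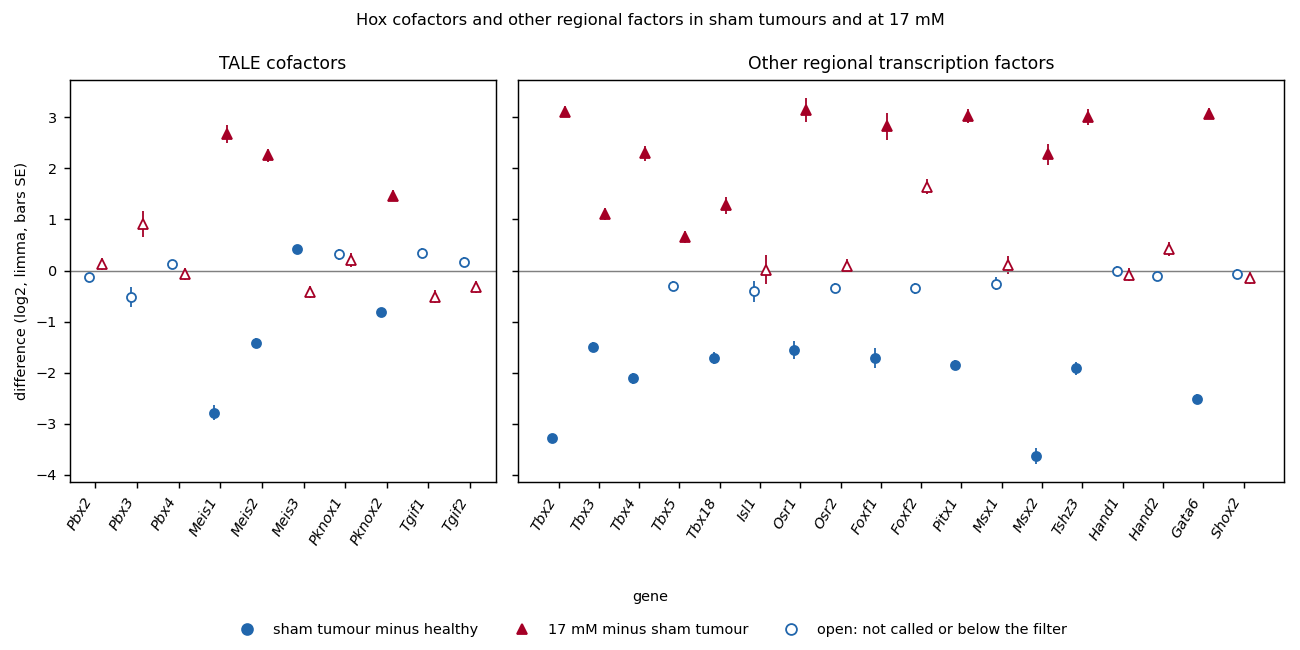
Differences (log2, y axis, bars are limma SE) of TALE cofactors and other regional transcription factors (x axis), circles for sham tumour minus healthy PBS and triangles for 17 mM minus sham tumour, filled where called. Meis1, Meis2 and Pknox2 and 10 of the regional factors lay below 0 in the sham tumours and were called; the fitted values of Tbx2, under the floor in both sham tumours, were -3.29 and 3.12.

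Regulators of Hox clusters were called in both directions. In the sham tumours the Polycomb counts were near or below the share over all genes. Of 25 Polycomb group genes, which keep Hox clusters silent, 7 were higher and 5 lower in the sham tumours, where 28.6% of all genes were called in each direction, with Pcgf5 at 1.69 (limma adjusted p = 0.00269), Phc2 at 1.40 (adjusted p = 0.00858) and Ezh2, the H3K27 methyltransferase, at 1.365 (adjusted p = 0.00362). Cbx7 was at -1.30 (adjusted p = 0.00683), Cbx6 at -1.01 (adjusted p = 0.00506) and Phc3 at -0.81 (adjusted p = 0.00734). At 17 mM 3 were higher and 5 lower than in the sham tumours (15.7% and 10.6% of all genes), among them Ezh2 at -1.17 (adjusted p = 0.0206), Pcgf5 at -0.99 (adjusted p = 0.023), Rbbp4 at -0.85 (adjusted p = 0.0353), Cbx6 at 0.83 (adjusted p = 0.0292), Phc3 at 0.72 (adjusted p = 0.035) and Rybp at 0.69 (adjusted p = 0.0481). The medians of the list were 0.01 and -0.06.

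Of 14 trithorax group and H3K27 demethylase genes, which keep Hox genes active, 5 were higher and 2 lower in the sham tumours, against 28.6% of all genes in each direction. Ash2l was at 0.99 (limma adjusted p = 0.00734), Psip1 at 0.89 (adjusted p = 0.00755), Dot1l at 0.59 (adjusted p = 0.0227), Kmt2c at -1.25 (adjusted p = 0.00382) and Kdm6a at -0.55 (adjusted p = 0.0328). At 17 mM Kmt2c was higher (0.77, adjusted p = 0.0322) and Psip1 lower (-0.65, adjusted p = 0.0487). Of 4 tested Cdx and other upstream trunk factors, Nr6a1 alone was called, at least 1.24-fold lower in the sham tumours, where it was under the floor (fitted -0.53, adjusted p = 0.0175), and none at 17 mM. The list of genes inside or beside the Hox clusters, which share their chromosomal place, had 7 tested members, of which 5 were higher and 1 lower in the sham tumours, beside the same 28.6% and 28.6%. Lnpk, beside Hoxd, was at 1.74 (adjusted p = 0.00327), Hnrnpa1 and Cbx5, on the side of Hoxc, at 1.23 (adjusted p = 0.00387) and 0.98 (adjusted p = 0.00824), and Smug1 at -1.26 (adjusted p = 0.00683). At 17 mM 3 were lower, where 10.6% of all genes were, Lnpk at -0.99 (adjusted p = 0.0303), Snx10 at -0.94 (adjusted p = 0.0256) and Hnrnpa1 at -0.65 (adjusted p = 0.0419). Lnpk thus had the opposite sign to the called Hoxd genes in both comparisons. The medians in the sham tumours and at 17 mM were 0.24 and -0.27 for the trithorax list, -0.04 and -0.14 for the Cdx list and 0.22 and -0.34 for the neighbours.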

How the data were processed

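Total RNA of frozen bladders (100 ng) was labelled with a 3′ IVT kit and hybridised to Affymetrix arrays, per the labels' protocols. The deposited values are log2 intensities made by the authors with RMA; the submitters' processing notes name Transcriptome Analysis Console 4.0.1.36. A genome build is not given in the sources used here. Sorted values show that each experiment was normalized on its own, since they deviated by 0.022 log2 within and by 0.329 between experiments. Differences were therefore fitted with limma 3.58.1 (lmFit, eBayes; R 4.3.3) as 7 group means with the experiment as a block, since the labels number the experiments. The correlation of same-numbered deviations in the PBS groups was 0.647. The fit left 1 residual degree of freedom and 2.23 prior ones, and groups of 1 array were assumed to vary like the PBS groups.

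Of 45077 probe sets, 28898 named 1 gene, 551 several and 15588 none in the platform annotation, 40 were control probe sets, and 28689 were matched by Entrez number to a RefSeq gene. Genes in the lowest 30% of mean level (under 4.16) were left out, which kept 11969. A gene was called at Benjamini-Hochberg adjusted p under 0.05. Named are all Hox genes above the floor, and up to 3 passing genes per direction and list by size in the sham tumour and 17 mM comparisons. The Hox members and the gene lists were chosen with earlier results of these data known. For a gene under the floor in both sham tumours, an at-least fold sets those arrays at the floor. None is given where a healthy bladder of the comparison was also under the floor.

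On simulated data with 200 of 11969 genes changed, log2 changes of 1, 2 and 4 were called in 1.49%, 88.1% and 97.0% for the sham tumour comparison, in 0%, 61.2% and 92.4% at 17 mM, and in 1.49%, 65.7% and 97.0% at 24 h. A far larger share was called in the data, 57.2% in the sham tumours and 26.3% at 17 mM. The Benjamini-Hochberg threshold depends on that share, so the simulated rates do not carry over to those comparisons. At 24 h none of the 6 proliferation markers was called in the data, at a median difference of 3.54 log2. The simulated rates therefore do not carry over to the 24 h comparison either. Tried as alternatives were dropping the block, joint quantile normalization, other filters, averaging a gene's probe sets, a trend in the variance prior, and leaving out single arrays. Tables and plots used numpy 2.4.6, matplotlib 3.10.9 and pandas 2.3.3 under Python 3.11.15.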

Additional observations from a re-analysis of the deposited data

How the results depend on the processing

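The fit without the experiment block ignores the separate normalization. It called 12 of the 16 Hox genes in sham tumours and lost Hoxa7 (adjusted p = 0.0927), Hoxb4 (0.181), Hoxb13 (0.0553) and Hoxd4 (0.157). At 17 mM it called 9 against 10, and at 8.5 mM 7 against 6. Over all genes the counts without the block, the pairing of the PBS arrays, were 3172 against 6852 in sham tumours, 1217 against 3147 at 17 mM, 945 against 1872 at 8.5 mM, 36 against 0 at 1.7 mM and 590 against 356 for 17 mM against healthy. For the arrays at 24 h and 7 d they were 126 and 15 against 0. Without it the median of all genes at 17 mM against sham was 0.17 and not -0.04.

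Leaving out the lowest 50% of genes gave 8 called in sham tumours, all 8 that were still tested. Joint quantile normalization gave 10 called at 8.5 mM and 4 for 17 mM against healthy, and the lowest 50% left out gave 1 there and the mean of probe sets 2. Joint normalization moved the split over all genes at 17 mM from 1875 higher and 1272 lower to 2151 and 2246, and at 8.5 mM from 1315 and 557 to 1822 and 1452. For 17 mM against healthy, counts over all genes were 2188 with joint normalization, 202 with no filter, 577 with the lowest 50% left out, 684 with the mean of probe sets and 732 with a variance trend. At 24 h these were 782, 0, 121, 96 and 198, and at 7 d 28 with joint normalization.

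Leaving out 1 PBS array leaves no residual degrees of freedom, so only values are given. The median over the 34 Hox genes then ranged from -0.495 to -0.465 in sham tumours (-0.415 with all arrays), 0.095 to 0.19 at 8.5 mM, -0.005 to 0.045 at 1.7 mM, -0.28 to -0.155 for 17 mM against healthy, -0.34 to -0.19 at 24 h and -0.09 to 0 at 7 d. No called Hox difference moved by more than 1.49 times when 1 PBS array was left out. With the mean of probe sets 3 moved further, Hoxb3 and Hoxb4 in sham tumours to -1.34 and -0.54 and Hoxd13 at 17 mM to 1.02, and kept their calls. None of the alternatives run reversed a called Hox gene. Without the array labelled healthy, 17 mM, 24 h, the counts of called Hox genes stayed at 16, 10 and 6. Signal over background limits Hoxa13, Hoxb6, Hoxb8, Hoxd4, Hoxd10 and Hoxd13, which were under the floor in both sham tumours, Hoxa7, Hoxb2 and Hoxb4, under it in 1, and Hoxb13, under it in 1 healthy PBS bladder.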

Other observations

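Hoxb5os, an RNA antisense to Hoxb5 and not one of the 34 genes, was looked at after its values were seen. It was at 6.51 and 6.30 log2 in the healthy PBS bladders and at 4.19 and 4.21 in the sham tumours. At 1.7, 8.5 and 17 mM it was at 4.45, 4.89 and 5.04, and in the bladders labelled healthy at 24 h and 7 d after 17 mM at 5.43 and 6.20. It was under the floor in both sham tumours. Its sense partner Hoxb5 was under the floor on all 9 arrays. Hoxa11os, Hoxaas2 and Hoxd3os1 were under the floor on all 9 arrays, although Hoxa11 was above it on all.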
